A study of Mus musculus with 12 samples.

Results

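A set of 9 G protein-coupled receptor genes known from astrocytes was followed across 12 RNA-seq libraries of cultured mouse midbrain astrocytes. The genes were taken by symbol: S1pr1, Lpar1, Ednrb, P2ry1, Adora1, Adora2b, Grm3, Grm5 and Adrb1. Each symbol matched 1 row among the 32742 genes of the deposited table, and all 9 passed the filter on low counts that left 21129 genes. The cells were primary astrocytes from the midbrain of newborn mice, wild type (WT) or labelled Arrb2-KO, with the time given as Day 14. Each genotype received PBS, the vehicle, or MPP+ at 500 µM for 24 h, which gives 4 groups of 3 libraries. MPP+, which brain cells form from the toxin MPTP, blocks complex I in mitochondria. Arrb2 encodes beta-arrestin 2, an adaptor that binds activated receptors of this class, ends their coupling to G proteins and takes part in their removal from the cell surface. No source used here states the background strain, whether the knockout lacks the gene in all cells, or whether libraries of a group came from separate animals or cultures, so the tests measure the spread between libraries, which may be technical.

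Receptors of this class span the membrane and, when bound by a ligand, activate a heterotrimeric G protein on its inner side. Gs raises and Gi lowers cyclic AMP, Gq releases calcium from stores, and G12/13 acts on the cytoskeleton. Astrocytes use them to sense lipids, peptides, nucleotides, adenosine, glutamate and noradrenaline, and many of their calcium responses start at such receptors.

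The libraries held between 64249029 and 69865569 counts each. Arrb2 RNA was lower in the libraries labelled knockout but remained present: the level was 26.3 ± 4.65 CPM (counts scaled to library size; SD, n = 3) in WT in PBS and 14.8 ± 1.22 CPM in the knockout in PBS. The log2 difference by edgeR's quasi-likelihood test was -0.83 ± 0.16 (SE) without MPP+ (adjusted p = 0.0084) and -0.57 ± 0.16 in MPP+ (adjusted p = 0.0363), and the second call was lost under 12 of 23 alternative settings, among them 8 that each left out 1 library. All 12 astrocyte markers checked, among them Gfap, Aqp4 and Slc1a3, reached 1 CPM in at least 1 library. Their summed level ran from 6410 to 7270 CPM in WT in PBS, 4890 to 6100 CPM in the knockout in PBS, 2060 to 2640 CPM in WT with MPP+ and 1870 to 2180 CPM in the knockout with MPP+. In bulk RNA, fewer cells of a type and less RNA per cell cannot be told apart. The sum of 4 Y-linked genes was 0 to 0.23 CPM in WT libraries. In knockout replicates 1 to 3 it was 39.4, 127 and 129 CPM without MPP+ and 43.1, 131 and 129 CPM with it. Xist, an RNA typical of female cells, was at 787 to 868 CPM in WT in PBS and 1200 to 1410 CPM with MPP+. In knockout replicates 1 to 3 it was 572, 393 and 470 CPM without MPP+ and 913, 635 and 779 CPM with it. Each knockout library thus held both Y-linked RNA and Xist. Genotype and sex of the source animals cannot be told apart in these libraries.

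Promoter sequences are shown for 4 receptors, Ednrb and Grm3, which were lower in the knockout in both treatments, and P2ry1 and Adrb1, which rose with MPP+ in WT. Other receptors moved together too, such as Lpar1 and Grm5. Each line gives the 250 bases before the start site, 5′ to 3′ on the gene's strand, from RefSeq on GRCm38.p6. Capitals mark the letters TGACG, the half-site of the cyclic AMP response element that cyclic AMP-activated CREB binds, and GGGCGG, the GC box bound by Sp1-type factors, each on either strand. The Ednrb window is chr14:103843702-103843951 on the minus strand, the Grm3 window chr5:9725353-9725602 on the minus strand, the P2ry1 window chr3:61002535-61002784 on the plus strand and the Adrb1 window chr19:56721867-56722116 on the plus strand. None of the 4 overlapped an exon of its gene in GENCODE, and the Ednrb window lay within that gene's annotated span.
Ednrb: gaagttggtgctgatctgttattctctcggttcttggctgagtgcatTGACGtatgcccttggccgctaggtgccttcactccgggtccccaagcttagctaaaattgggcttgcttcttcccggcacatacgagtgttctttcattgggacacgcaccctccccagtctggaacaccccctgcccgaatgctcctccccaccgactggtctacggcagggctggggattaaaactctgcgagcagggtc
Grm3: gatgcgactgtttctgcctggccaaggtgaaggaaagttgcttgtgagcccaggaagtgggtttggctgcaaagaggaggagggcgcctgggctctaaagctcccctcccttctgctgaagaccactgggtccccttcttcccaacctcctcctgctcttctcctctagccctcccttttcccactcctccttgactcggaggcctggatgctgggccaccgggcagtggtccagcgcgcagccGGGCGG
P2ry1: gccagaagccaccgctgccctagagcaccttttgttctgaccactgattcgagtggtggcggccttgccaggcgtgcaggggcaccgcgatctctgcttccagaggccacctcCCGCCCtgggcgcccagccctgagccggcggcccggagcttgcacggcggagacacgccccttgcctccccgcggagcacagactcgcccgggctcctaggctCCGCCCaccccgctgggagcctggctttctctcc
Adrb1: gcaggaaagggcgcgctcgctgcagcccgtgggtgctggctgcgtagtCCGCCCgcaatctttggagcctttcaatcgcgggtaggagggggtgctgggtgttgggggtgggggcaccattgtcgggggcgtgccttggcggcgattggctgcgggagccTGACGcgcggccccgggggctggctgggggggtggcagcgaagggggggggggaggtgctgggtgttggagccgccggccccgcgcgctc
Ednrb and Adrb1 held the cyclic AMP half-site, starting at -203 and -90 from the start site, a match that 20.8% of all 32851 promoter windows in the RefSeq table contained. P2ry1 held the GC box at -137 and -34, Adrb1 at -202 and Grm3 at -6, with a further match in Grm3 at 1, beyond the bases shown. The GC box occurred in 35.7% of all windows, which span 250 bases before and 50 after each start. RefSeq windows were matched for 7 of the 9 receptors, with 10 start sites in all. Of these 10 windows, 0 held TGATGNAA, an element bound by C/EBP and ATF factors (3.97% of all windows), and 0 held the E-box CACGTG (7.15% of all windows), which says only that these letters are not in the windows. Over the 7 receptors with windows, 6 held the GC box (7 of 10 windows), Lpar1, Adora1 and Adora2b among them, and 2 held the cyclic AMP half-site. The third Lpar1 window was 43.7% G and C and the other receptor windows 58.7% to 72.3%, against a median of 52.7% over all windows. The part of this base content in the GC box matches was not tested.

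**Figure D1:**
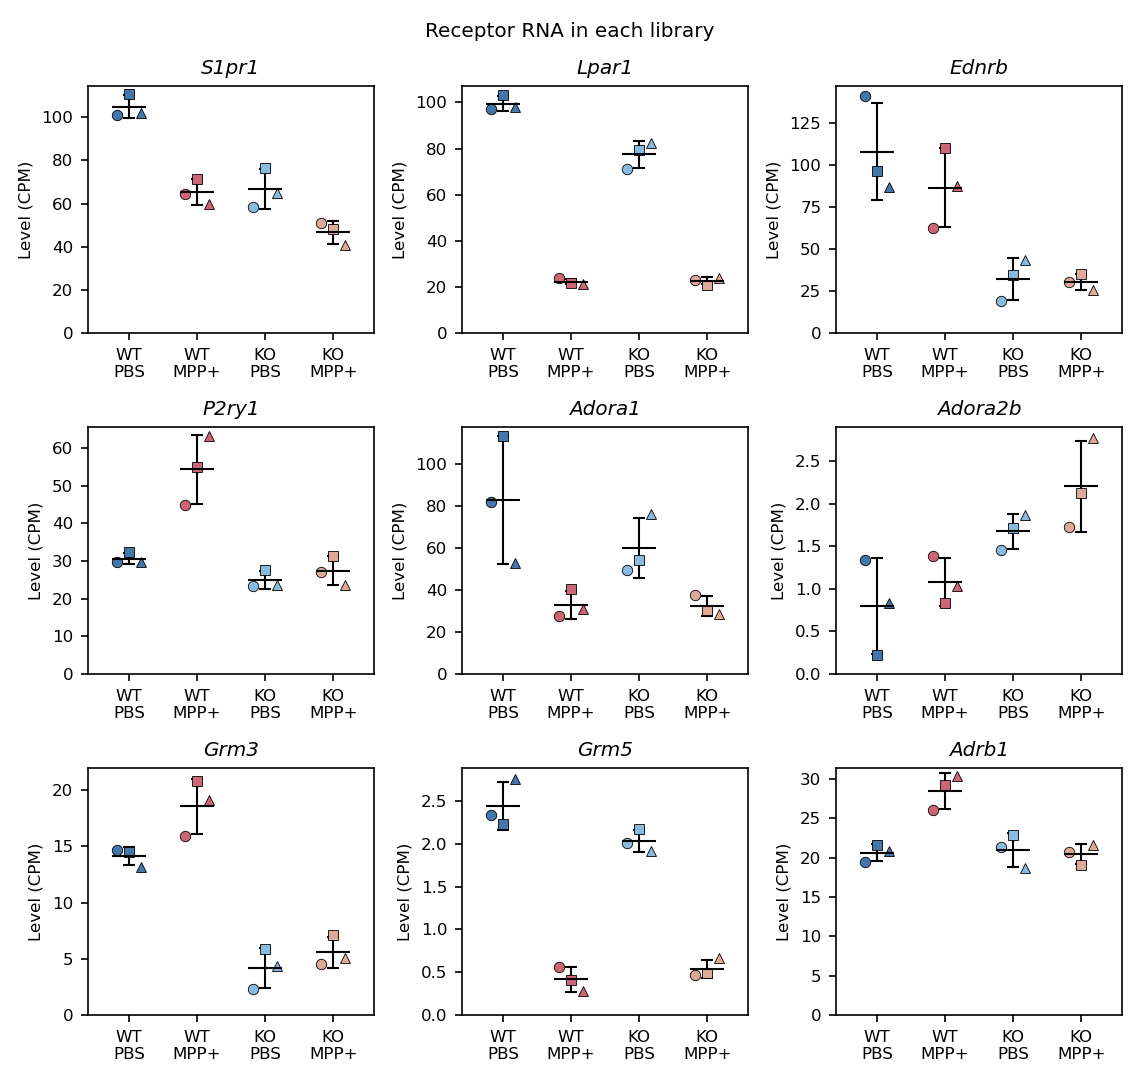
Level of each receptor in every library (CPM, linear axis from 0). Points are libraries (circle, square and triangle for replicates 1, 2 and 3), bars are the mean ± SD of 3. Lpar1 and Grm5 fell with MPP+ in both genotypes, P2ry1 and Adrb1 rose in WT, and Ednrb and Grm3 sat lower in the knockout.

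With MPP+ in WT cultures, 6 of the 9 receptors changed. P2ry1 and Adrb1 rose, while S1pr1, Lpar1, Adora1 and Grm5 fell. Calls rest on edgeR's quasi-likelihood test over all 21129 genes, with 0.05 as the limit for the p adjusted by the method of Benjamini and Hochberg. By that rule 55.2% of all genes were called in this contrast, 26.8% higher and 28.4% lower, so a count of 6 of 9 lies near the background. In the knockout MPP+ lowered S1pr1, Lpar1, Adora1 and Grm5 (4 of 9) and raised 0, against 47.7% of all genes called, 23.1% higher and 24.7% lower. Astrocyte markers moved with this contrast, with 10 of 12 called lower in each genotype and summed levels as given above; their part in the receptor changes was not tested. The summed level of 8 pericyte and smooth muscle markers also moved, from 3830 to 4210 CPM in WT in PBS to 610 to 818 CPM with MPP+. That of 12 microglia and macrophage markers went from 617 to 927 CPM to 463 to 576 CPM. Oligodendrocyte lineage markers summed to 517 to 536 CPM in WT in PBS and 143 to 161 CPM with MPP+. In the knockout these sums were 549 to 597 CPM and 182 to 213 CPM. Neuronal markers in WT went from 461 to 575 CPM to 223 to 246 CPM, and endothelial markers from 96 to 99.8 CPM to 35.8 to 51.8 CPM. The part of these markers in the receptor changes was not tested.

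Knockout libraries in PBS held less Ednrb, S1pr1, Lpar1 and Grm3 than WT (4 of 9 lower, 0 higher), where 11% of all genes were called, 5.34% higher and 5.66% lower. With MPP+, the knockout held less Ednrb, S1pr1, P2ry1, Grm3 and Adrb1 (5 of 9 lower, 0 higher), where 16.9% of all genes were called, 7.87% higher and 9% lower. The median log2 difference of the 9 receptors was -0.36 in PBS and -0.48 with MPP+, against -0.0015 and -0.017 over all tested genes. The 9 receptors were chosen with earlier results of these data known, so these counts and medians are only a description. Both comparisons carry the sex-linked difference given above. Astrocyte markers were lower in the knockout for 4 of 12 genes in PBS (0 higher), where the summed levels given above did not overlap, and 2 were lower and 3 higher with MPP+, where they did. Fibroblast and meningeal markers were higher in the knockout. Their sum over 8 genes ran from 390 to 1150 CPM in WT and 1410 to 1780 CPM in the knockout in PBS (3 of 8 higher, 0 lower). With MPP+ it ran from 213 to 574 CPM in WT and 1230 to 1800 CPM in the knockout (7 of 8 higher, 0 lower). Microglia and macrophage markers summed to 617 to 927 CPM in WT and 379 to 487 CPM in the knockout in PBS (3 of 12 lower), and to 463 to 576 CPM and 312 to 418 CPM with MPP+ (5 of 12 lower). Ependymal markers summed to 322 to 387 CPM in WT and 169 to 243 CPM in the knockout in PBS (5 of 5 tested lower) and to 226 to 247 CPM and 154 to 194 CPM with MPP+ (4 of 5 lower). None of these markers was at 0 in every library, and their part in the receptor differences was not tested.

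**Figure D2:**
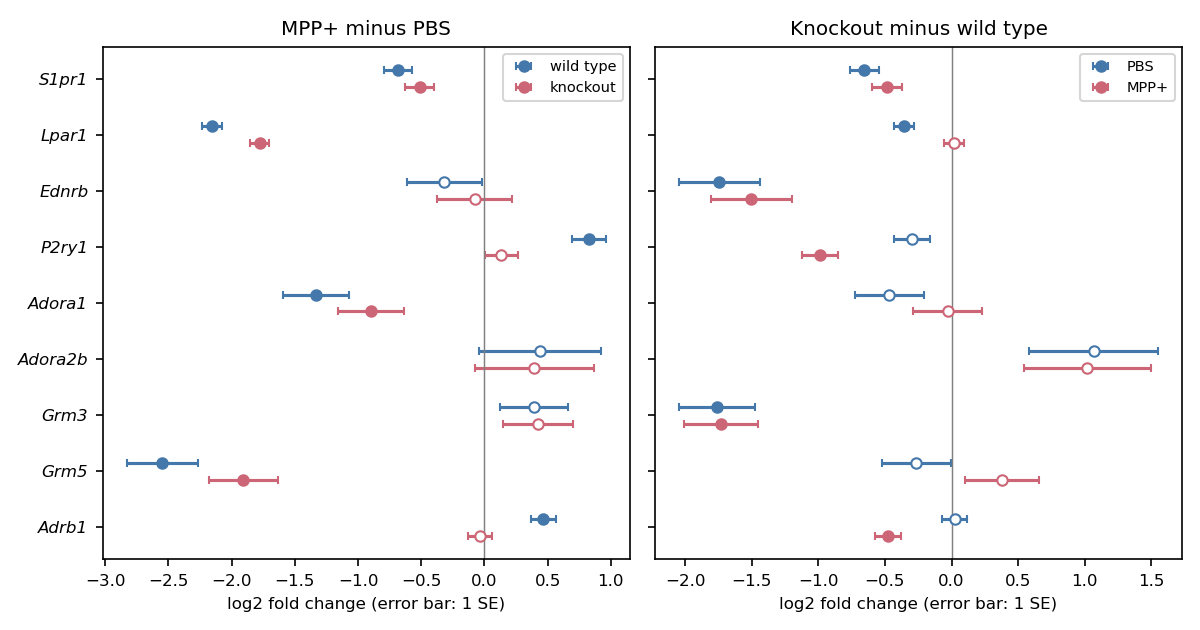
Log2 fold change of each receptor, left for MPP+ minus PBS in WT and knockout, right for knockout minus WT in PBS and MPP+. Error bars are 1 SE of the edgeR fit over 12 libraries, and filled points have an adjusted p under 0.05. Ednrb and Grm3 lie at -1.74 and -1.76 on the right in PBS, and P2ry1 and Adrb1 are filled on the left only for WT.

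Both lipid receptors fell with MPP+. S1pr1 (ENSMUSG00000045092, GRCm38 chromosome 3, 115710433 to 115715072, minus strand) is a Gi-coupled receptor for sphingosine 1-phosphate. Its levels in WT replicates 1 to 3 were 101, 111 and 102 CPM in PBS and 64.6, 71.6 and 60.0 CPM with MPP+. In the knockout they were 58.3, 76.7 and 65.0 CPM in PBS and 51.0, 48.1 and 40.9 CPM with MPP+. The treated and untreated libraries did not overlap in either genotype, and every WT library in PBS lay above every other library. The log2 change with MPP+ was -0.68 ± 0.11 in WT (adjusted p = 0.00028) and -0.51 ± 0.11 in the knockout (adjusted p = 0.00252). Knockout cultures had less S1pr1 than WT in PBS, by -0.65 ± 0.11 (adjusted p = 0.00422), and with MPP+, by -0.49 ± 0.11 (adjusted p = 0.0134). The MPP+ difference between genotypes lost its call without WT MPP+ replicate 2 (-0.42, adjusted p = 0.0567) or knockout MPP+ replicate 3 (-0.40, adjusted p = 0.0557).

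Lpar1 (ENSMUSG00000038668, GRCm38 chromosome 4, 58435255 to 58553628, minus strand), a receptor for lysophosphatidic acid that couples to Gi, Gq and G12/13, had the largest fall after Grm5. In WT its levels were 97.0, 103 and 98.0 CPM in PBS and 23.7, 21.8 and 21.4 CPM with MPP+, and in the knockout 71.0, 79.3 and 82.2 CPM in PBS and 23.2, 20.8 and 23.8 CPM with MPP+. The 6 treated libraries of both genotypes lay together, within 20.8 to 23.8 CPM. The fall was 4.46-fold in WT (log2 -2.16 ± 0.077, adjusted p = 3.17e-09) and 3.43-fold in the knockout (-1.78 ± 0.077, adjusted p = 1.43e-08). The genotypes differed in PBS, with -0.36 ± 0.074 (adjusted p = 0.011), and with MPP+ the difference was 0.02 ± 0.075 (adjusted p = 0.897). The PBS call was lost without WT PBS replicate 2 (-0.34, adjusted p = 0.0514) and with both knockout libraries numbered 1 left out (-0.31, adjusted p = 0.066), which had the lowest Y-linked levels of the knockout; that last setting was chosen after seeing the data.

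Genes around these lipid receptors changed too. S1pr3, a second sphingosine 1-phosphate receptor, had mean levels of 382 CPM in WT in PBS and 104 CPM with MPP+, a log2 change of -1.88 ± 0.19 (adjusted p = 5.83e-06). Sphk1, the kinase that makes sphingosine 1-phosphate, rose by 1.53 ± 0.26 in WT and 1.12 ± 0.25 in the knockout. Enpp2, which encodes autotaxin, the secreted enzyme that makes lysophosphatidic acid, fell by 2.88 ± 0.32 on the log2 scale in WT (adjusted p = 1.35e-05), and its change in the knockout was -0.73 ± 0.30 (adjusted p = 0.062). That change was called under 6 of 23 alternative settings, DESeq2 among them, and was -0.39 without knockout PBS replicate 2. Plpp3, a phosphatase that degrades lysophosphatidic acid and sphingosine 1-phosphate, had log2 changes of -1.54 ± 0.090 in WT and -1.06 ± 0.089 in the knockout, both called.

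Ednrb (ENSMUSG00000022122, GRCm38 chromosome 14, 103814625 to 103844402, minus strand) encodes the endothelin B receptor, which binds all endothelins and is the main endothelin receptor of astrocytes. Its levels in WT were 141, 96.5 and 86.7 CPM in PBS and 62.7, 110 and 87.6 CPM with MPP+. In the knockout they were 18.8, 34.4 and 43.6 CPM in PBS and 30.5, 35.4 and 25.9 CPM with MPP+. Each of the 6 knockout libraries lay below each of the 6 WT libraries, while treated and untreated libraries overlapped within a genotype. The knockout was 3.35-fold lower in PBS (log2 -1.74 ± 0.30, adjusted p = 0.00476) and 2.83-fold lower with MPP+ (-1.50 ± 0.30, adjusted p = 0.00716). Without any 1 library the PBS difference stayed between -2.04 and -1.48 and the MPP+ difference between -1.69 and -1.30, all called. The MPP+ change was -0.32 ± 0.29 in WT (adjusted p = 0.386) and -0.08 ± 0.30 in the knockout (adjusted p = 0.859), neither called.

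The other endothelin receptor and the endothelin peptides changed with MPP+. Ednra, which encodes the endothelin A receptor, had mean levels of 13.9 CPM in WT in PBS and 1.49 CPM with MPP+, and 8.64 and 2.32 CPM in the knockout. The log2 change was -3.22 ± 0.20 in WT (adjusted p = 1.43e-07) and -1.90 ± 0.19 in the knockout (adjusted p = 8.22e-06). Edn1, the gene of endothelin 1, rose by 1.55 ± 0.23 in WT (adjusted p = 0.000159), and its change in the knockout was 0.08 ± 0.23 (adjusted p = 0.818). Edn3, the gene of endothelin 3, fell in both genotypes, with -2.87 ± 0.24 in WT and -1.68 ± 0.22 in the knockout, and with MPP+ the knockout held more of it than WT, by 1.96 ± 0.23 (adjusted p = 0.000442).

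P2ry1 (ENSMUSG00000027765, GRCm38 chromosome 3, 61002795 to 61008982, plus strand) encodes a Gq-coupled receptor for ADP that starts calcium signals in astrocytes. In WT its levels were 29.8, 32.3 and 29.7 CPM in PBS and 44.9, 54.9 and 63.2 CPM with MPP+. The knockout had 23.4, 27.7 and 23.7 CPM in PBS and 27.0, 31.4 and 23.7 CPM with MPP+. The 3 treated WT libraries lay above all others, and the knockout groups overlapped. The rise in WT was 1.77-fold (log2 0.83 ± 0.13, adjusted p = 0.000254), and the change in the knockout was 0.13 ± 0.13 (adjusted p = 0.442). With MPP+ the knockout was 1.98-fold lower than WT (-0.99 ± 0.13, adjusted p = 0.00089), and in PBS the difference was -0.30 ± 0.13 (adjusted p = 0.199) with no overlap between the groups. An antisense gene, Gm37035, shares 992 exon bases with P2ry1, 23.1% of its exons, and the sources used here do not state whether counting used strand; Gm37035 itself had 0 to 23 counts per library.

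Among other nucleotide genes, P2ry14, a receptor for UDP-glucose, was higher in the knockout by 4.48 ± 0.46 in PBS (adjusted p = 0.000226), with mean levels of 0.282 CPM in WT and 6.36 CPM in the knockout. It was also higher with MPP+, by 3.96 ± 0.46. P2ry6, a receptor for UDP, was lower in the knockout by -0.91 ± 0.14 in PBS and -0.97 ± 0.14 with MPP+. P2ry12, the ADP receptor typical of microglia, fell with MPP+, with log2 changes of -2.20 ± 0.37 in WT and -2.32 ± 0.39 in the knockout. Entpd2, an ectoenzyme that turns ATP to ADP, fell with MPP+ (-1.80 ± 0.28 in WT and -1.43 ± 0.28 in the knockout) and was lower in the knockout in PBS, by -1.70 ± 0.28 (adjusted p = 0.00345).

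Of the adenosine receptors, Adora1 fell with MPP+ and Adora2b had low counts in every group. Adora1 (ENSMUSG00000042429, GRCm38 chromosome 1, 134199223 to 134235431, minus strand) encodes the Gi-coupled A1 receptor. Its levels in WT were 81.7, 113 and 52.8 CPM in PBS and 27.4, 40.2 and 30.7 CPM with MPP+, and in the knockout 49.4, 54.0 and 76.1 CPM in PBS and 37.5, 30.6 and 28.4 CPM with MPP+. Treated libraries lay below untreated ones in both genotypes, although the WT libraries in PBS ranged widely. The change was -1.33 ± 0.26 in WT (adjusted p = 0.00105) and -0.90 ± 0.26 in the knockout (adjusted p = 0.0138). In the knockout the call was lost without PBS replicate 3 (-0.67, adjusted p = 0.0681) or MPP+ replicate 3 (-0.81, adjusted p = 0.052). Genotypes overlapped in both treatments, with log2 differences of -0.47 ± 0.26 in PBS and -0.03 ± 0.26 with MPP+. The opposite-strand gene Mybph shares 1162 exon bases with Adora1, 20.1% of its exons, and had 0 to 11 counts per library.

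Adora2b (ENSMUSG00000018500, GRCm38 chromosome 11, 62248984 to 62266453, plus strand) encodes the Gs-coupled A2B receptor. It had 90, 15 and 58 counts in WT in PBS, 94, 55 and 67 in WT with MPP+, 97, 115 and 122 in the knockout in PBS and 121, 147 and 188 in the knockout with MPP+. These counts correspond to 0.22 to 1.39 CPM in WT and 1.45 to 2.77 CPM in the knockout, so every knockout library lay above every WT library. The difference was not called in PBS (1.07 ± 0.48, adjusted p = 0.203) or with MPP+ (1.02 ± 0.48, adjusted p = 0.173). The PBS difference was 1.65 without WT PBS replicate 1 and 0.61 without WT PBS replicate 2, neither called. Without the latter, the library with 15 counts, the MPP+ difference was called (1.04, adjusted p = 0.04). MPP+ changes of 0.44 ± 0.48 in WT and 0.39 ± 0.47 in the knockout were not called either.

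Enzymes of adenosine supply moved with MPP+ in both genotypes. Nt5e, the ectonucleotidase CD73 that makes adenosine from AMP, rose by 0.92 ± 0.19 in WT and 0.89 ± 0.19 in the knockout. Adk, the kinase that clears adenosine inside the cell, fell, with log2 changes of -1.21 ± 0.063 and -1.22 ± 0.063. Ada, the gene of adenosine deaminase, which also clears adenosine, rose in the knockout by 0.999 ± 0.186 (adjusted p = 0.000937). Entpd1, an ectonucleotidase gene, had a log2 change of -1.07 ± 0.118 there (adjusted p = 1.79e-05). Slc29a1, an equilibrative nucleoside transporter, was higher in the knockout in both treatments, by 1.12 ± 0.13 with MPP+ (adjusted p = 0.000391) and with an adjusted p of 0.00101 in PBS.

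Of the metabotropic glutamate receptors, Grm3 was lower in the knockout and Grm5 fell with MPP+. Grm3 (ENSMUSG00000003974, GRCm38 chromosome 5, 9485541 to 9725170, minus strand) encodes the Gi-coupled mGluR3, the form that adult astrocytes keep. In WT its levels were 14.7, 14.5 and 13.2 CPM in PBS and 15.9, 20.8 and 19.1 CPM with MPP+, and in the knockout 2.33, 5.88 and 4.32 CPM in PBS and 4.52, 7.15 and 5.10 CPM with MPP+. All 6 knockout libraries lay below all 6 WT libraries. The knockout was 3.39-fold lower in PBS (-1.76 ± 0.28, adjusted p = 0.00317) and 3.32-fold lower with MPP+ (-1.73 ± 0.28, adjusted p = 0.00252), with -2.10 to -1.49 and -1.95 to -1.60 without any 1 library, all called. MPP+ changed it by 0.39 ± 0.27 in WT (adjusted p = 0.245) and 0.42 ± 0.28 in the knockout (adjusted p = 0.242), neither called, although the WT groups did not overlap. In a fit of the WT libraries alone the rise was called (0.40, adjusted p = 0.0259), and without knockout PBS replicate 2 so was that in the knockout (0.76, adjusted p = 0.039).

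Grm5 (ENSMUSG00000049583, GRCm38 chromosome 7, 87584168 to 88130869, plus strand) encodes the Gq-coupled mGluR5, which is high in young astrocytes and declines as they mature. Its levels in WT were 2.34, 2.23 and 2.76 CPM in PBS and 0.561, 0.408 and 0.277 CPM with MPP+. In the knockout they were 2.01, 2.17 and 1.92 CPM in PBS and 0.468, 0.490 and 0.663 CPM with MPP+. The treated libraries held 18 to 45 counts each and lay below every untreated one. The fall was 5.85-fold in WT (-2.55 ± 0.28, adjusted p = 1.22e-05) and 3.76-fold in the knockout (-1.91 ± 0.27, adjusted p = 0.000131). No genotype difference was called, with -0.26 ± 0.26 in PBS and 0.38 ± 0.28 with MPP+. The Homer genes, whose products tie mGluR5 to calcium stores, moved in different directions in WT: Homer3 rose by 1.27 ± 0.14 and Homer2 fell by 1.31 ± 0.27. The size of the Homer2 change depended on the processing, from -1.56 to -0.077 over 23 alternatives, all called. With MPP+ Homer2 was higher in the knockout than in WT, by 1.36 ± 0.27 (adjusted p = 0.00712).

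**Figure D3:**
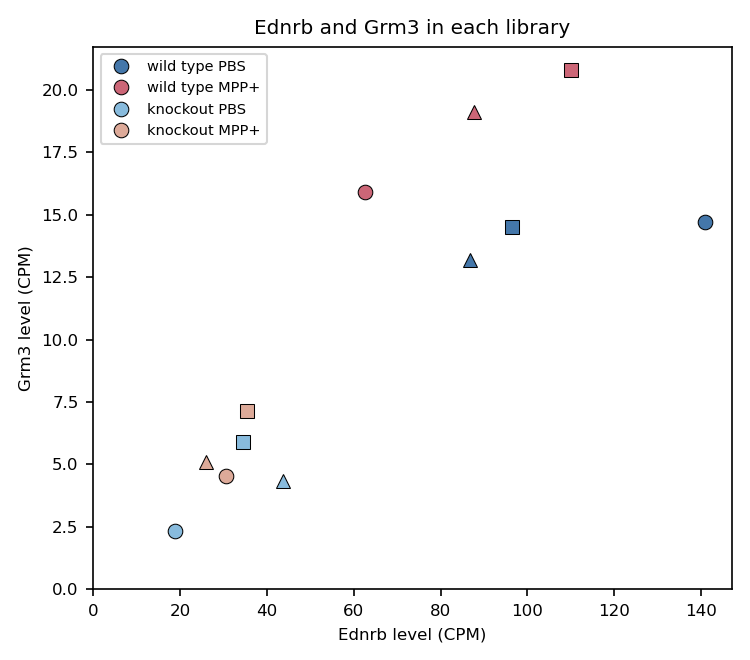
Ednrb level (CPM, x axis) against Grm3 level (CPM, y axis) in each of the 12 libraries, both axes linear from 0, with circle, square and triangle for replicates 1, 2 and 3. The knockout libraries, at 18.8 to 43.6 CPM of Ednrb and 2.33 to 7.15 CPM of Grm3, lie apart from the WT libraries, and the lowest of both genes is knockout PBS replicate 1.

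Ednrb and Grm3 followed each other across libraries: Pearson's r of their log2 CPM was 0.914 over 12 libraries, and 0.741 for deviations from the group means. The plot of both genes by library shows the separation by genotype, and the libraries share depth and group structure, so the value is a description. Both genes kept their genotype calls with both knockout libraries numbered 1 left out, where Ednrb differed by -1.48 in PBS and -1.47 with MPP+ and Grm3 by -1.49 and -1.57.

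Adrb1 (ENSMUSG00000035283, GRCm38 chromosome 19, 56722199 to 56733113, plus strand) encodes the beta-1 adrenergic receptor, which couples noradrenaline to Gs and cyclic AMP. In WT its levels were 19.4, 21.6 and 20.9 CPM in PBS and 26.0, 29.2 and 30.4 CPM with MPP+, and in the knockout 21.4, 22.9 and 18.7 CPM in PBS and 20.7, 19.1 and 21.6 CPM with MPP+. The 3 treated WT libraries were the highest of the 12, and the other 3 groups overlapped. MPP+ raised it by 0.47 ± 0.096 in WT (1.38-fold, adjusted p = 0.00155), and the change in the knockout was -0.04 ± 0.096 (adjusted p = 0.797). With MPP+ the knockout was lower by -0.48 ± 0.096 (adjusted p = 0.00734), and in PBS the difference was 0.02 ± 0.096 (adjusted p = 0.929). Adrb3, the beta-3 receptor gene, rose by 1.03 ± 0.11 in WT and 0.52 ± 0.11 in the knockout. Adra1b, a Gq-coupled alpha-1 receptor gene, fell, with log2 changes of -2.76 ± 0.25 in WT and -1.02 ± 0.23 in the knockout. With MPP+ it was higher in the knockout by 1.70 ± 0.25 (adjusted p = 0.00134). Adra1a, another alpha-1 receptor gene, went the other way, rising by 0.86 ± 0.23 in WT and 1.19 ± 0.24 in the knockout, both called. With MPP+ Adra1a was lower in the knockout, by -1.01 ± 0.23 (adjusted p = 0.0142).

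Whether MPP+ acted differently in the 2 genotypes was tested by the interaction, the log2 change of the knockout less that of WT. By edgeR 0 of 9 receptors were called, against 1.35% of all genes (0.601% higher and 0.748% lower). At an unadjusted limit of 0.05 edgeR counted 3, where 17.5% of all genes passed it. P2ry1 had -0.69 ± 0.19 (adjusted p = 0.0939), Adrb1 -0.50 ± 0.14 (adjusted p = 0.0944) and Lpar1 0.38 ± 0.11 (adjusted p = 0.1). DESeq2's Wald test called these 3 (adjusted p = 0.0143, 0.0161 and 0.0173) and 1407 genes in all, where edgeR called 285. Without WT MPP+ replicate 1, edgeR also called them (-0.81, -0.56 and 0.42, adjusted p = 0.0199, 0.0351 and 0.0412), with 1553 genes called in all. The P2ry1 and Adrb1 rise was thus past the threshold in WT and not in the knockout, while the test of the difference itself did not pass in edgeR. The interaction of Grm5 was 0.64 ± 0.38, of Adora1 0.44 ± 0.36, of Ednrb 0.24 ± 0.42, of S1pr1 0.17 ± 0.16, of Grm3 0.03 ± 0.39 and of Adora2b -0.05 ± 0.67.

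**Figure D4:**
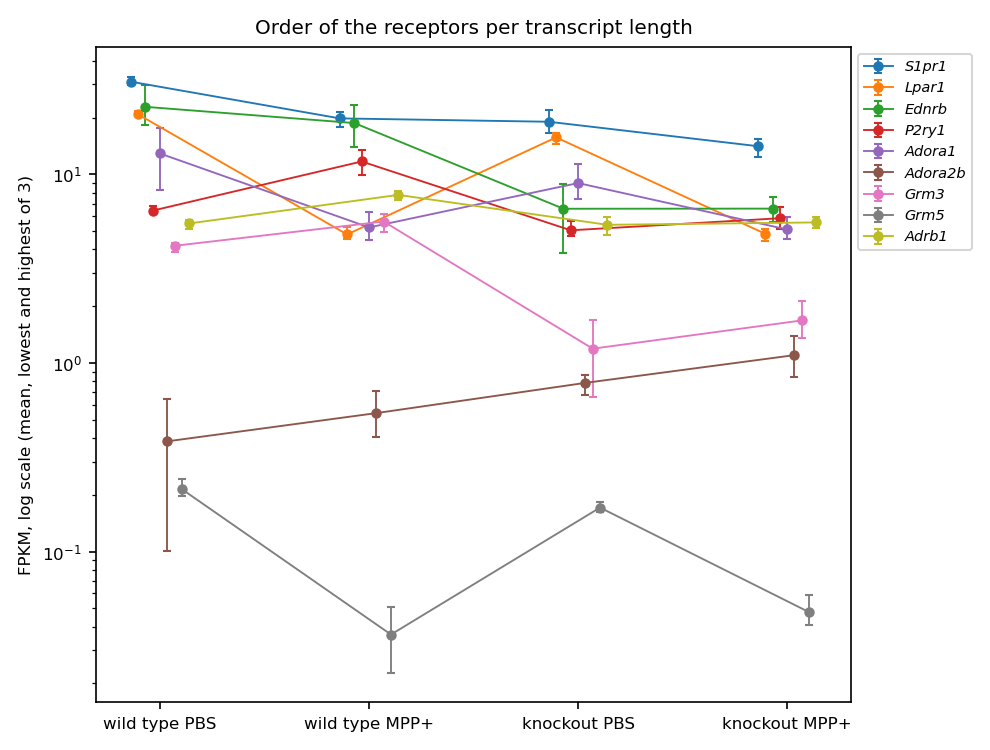
Mean FPKM of each receptor in the 4 groups (log axis), with whiskers to the lowest and highest of 3 libraries. S1pr1 is highest in each group and Grm5 lowest, while Lpar1 falls from 20.8 to 4.80 FPKM with MPP+ in WT and Grm3 from 4.18 in WT to 1.19 FPKM in the knockout in PBS.

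Levels of different receptors were compared per transcript length, in the deposited FPKM. In WT in PBS S1pr1 was highest at 31.0 ± 1.66 FPKM (SD, n = 3), followed by Ednrb at 22.8 ± 6.01 and Lpar1 at 20.8 ± 0.757, which overlapped each other. Adora1 came next at 12.9 ± 4.75, then P2ry1 at 6.42 ± 0.329, Adrb1 at 5.49 ± 0.304 and Grm3 at 4.18 ± 0.249, each without overlap with the next. Adora2b at 0.384 ± 0.274 and Grm5 at 0.214 ± 0.0238 overlapped at the bottom. With MPP+ in WT, S1pr1 (19.8 ± 1.78) and Ednrb (18.7 ± 4.70) overlapped at the top, P2ry1 came next (11.7 ± 1.72), and Grm3, Adora1 and Lpar1 overlapped their neighbours at 5.62, 5.23 and 4.80 FPKM. In the knockout in PBS, S1pr1 (19.0 ± 2.74) and Lpar1 (15.7 ± 1.17) overlapped, and Adora1, Ednrb, Adrb1 and P2ry1 each overlapped the next, at 8.99, 6.57, 5.40 and 5.05 FPKM. With MPP+ in the knockout, S1pr1 (14.1 ± 1.53) stood above an overlapping run of Ednrb, P2ry1, Adrb1, Adora1 and Lpar1 at 6.58 to 4.84 FPKM. Grm3 overlapped Adora2b in both knockout groups, at 1.19 against 0.784 FPKM in PBS and 1.68 against 1.10 FPKM with MPP+.

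Genes whose log2 CPM most resembled that of a receptor were found by Pearson's r over the 12 libraries, among tested genes with a mean of at least 2 CPM. Lpar1 was most like the replication genes Gins1 and Mcm4 (r = 0.997 for both), and Grm5 most like 2810013P06Rik (0.994) and P4ha3 (0.991). S1pr1 was closest to Ttc21a (0.988) and Entpd2 (0.987), and P2ry1 to Bicra (0.979) and Tnfrsf1a (0.975). Ednrb was closest to Lrrc9 (0.966) and Zfp97 (0.945), Adora2b to Vcan (0.959) and Cd80 (0.947), Adora1 to Fkbp5 (0.946) and Hdac3 (0.945), and Adrb1 to Vps13d (0.924) and Zfp867 (0.920). All 12 libraries share the 4-group structure. Among the receptors, Lpar1 and Grm5 had an r of 0.975, Lpar1 and Adora1 of 0.881, and P2ry1 and Adrb1 of 0.876, with 0.425, 0.292 and 0.365 for deviations from the group means.

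**Figure D5:**
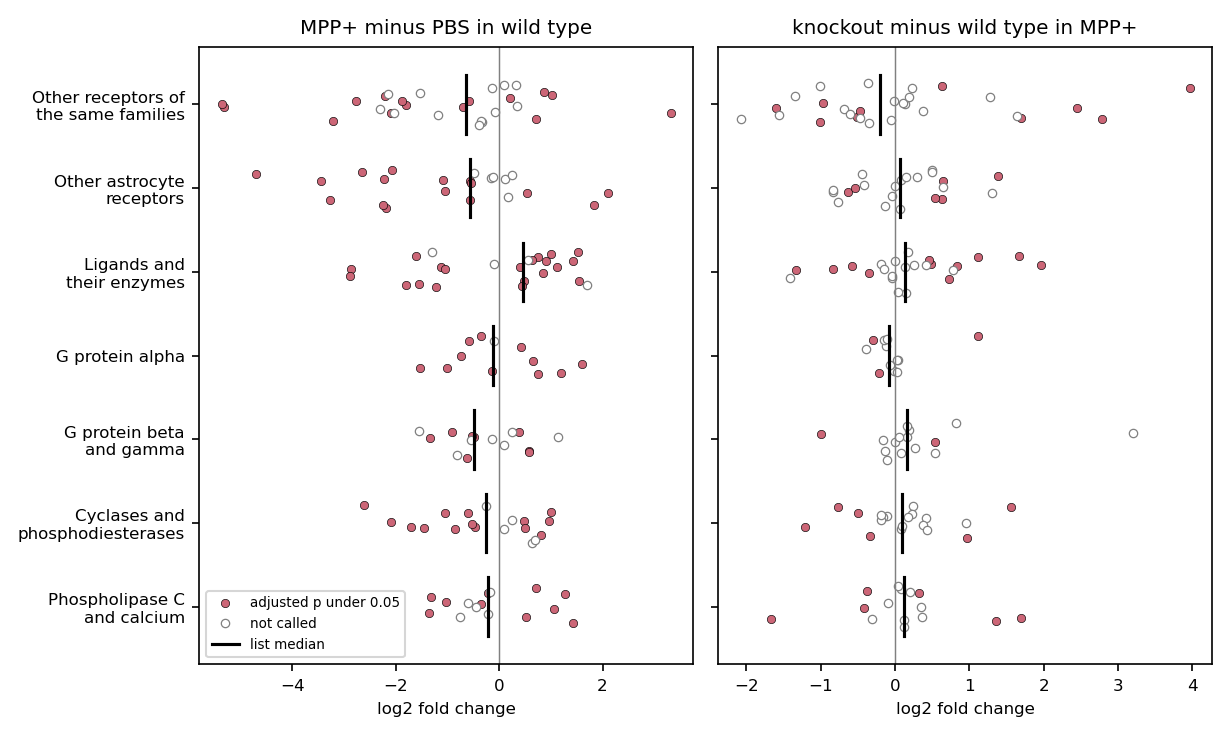
Log2 fold change (x axis) of each gene in 7 lists around the receptors, left for MPP+ minus PBS in WT, right for knockout minus WT with MPP+. Filled points have an adjusted p under 0.05, and vertical bars are list medians, such as -0.65 for other receptors of the same families and 0.46 for ligands and their enzymes on the left.

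Other receptors of the same families, 28 tested, had 5 genes higher and 10 lower with MPP+ in WT (53.6%, median -0.65), where 55.2% of all genes were called and their median was -0.038. In the knockout 3 rose and 11 fell (50% against 47.7%, median -0.93). Knockout against WT, 2 were higher and 7 lower in PBS and 5 higher and 5 lower with MPP+ (32.1% and 35.7%, against 11% and 16.9% of all genes). Of 22 other astrocyte receptors, 3 rose and 13 fell in WT (72.7%, median -0.56), among them Vipr2, a receptor for the peptide VIP, which rose by 2.10 ± 0.35, and Ackr3, an atypical chemokine receptor that signals through beta-arrestin, which fell by 2.19 ± 0.16. In the knockout 3 of these 22 rose and 9 fell (54.5%, median -0.46). Knockout against WT, 3 of them were higher and 2 lower in PBS and 4 higher and 2 lower with MPP+ (22.7% and 27.3%), and Ackr3 was lower in PBS, by -1.07 ± 0.15 (adjusted p = 0.00155).

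Ligands of the receptors and the enzymes that make or clear them, 24 tested, had 12 genes higher and 8 lower with MPP+ in WT (83.3%, median 0.46) and 11 higher and 8 lower in the knockout (79.2%, median -0.010), where 55.2% and 47.7% of all genes were called. Knockout against WT, 4 were higher and 1 lower in PBS and 7 higher and 4 lower with MPP+ (20.8% and 45.8%, against 11% and 16.9% of all genes).

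Downstream of the receptors, 11 of 12 G protein alpha subunits changed with MPP+ in WT, 5 up and 6 down (91.7%, median -0.11), against 55.2% of all genes. In WT Gnal, an alpha subunit of the Gs family, rose by 1.61 ± 0.17, from a mean of 4.54 to 13.8 CPM. Gnas, of the same family, was more abundant and fell, from 764 to 601 CPM (-0.35 ± 0.062). In the Gq family Gna14 fell by 1.53 ± 0.13, from 17.2 to 5.93 CPM. Gna11 rose from 83.5 to 141 CPM (0.75 ± 0.074), and Gnaq, at 238 and 222 CPM, was not called. In the knockout 4 of the alpha subunits rose and 6 fell (83.3%, against 47.7%). Gnai1, an alpha subunit through which Gi-coupled receptors act, fell by 1.01 ± 0.14 in WT. It was higher in the knockout than in WT by 1.07 ± 0.14 in PBS (adjusted p = 0.000842) and 1.11 ± 0.14 with MPP+ (adjusted p = 0.000555). Gnai2 and Gnai3, further Gi alpha subunits, had means of 648 and 171 CPM in WT in PBS, against 19.2 CPM for Gnai1. Neither was called between genotypes in either treatment. Of 15 beta and gamma subunits, 3 rose and 5 fell in WT (53.3%) and 2 rose and 5 fell in the knockout (46.7%), near those shares of all genes. Adenylyl cyclases and cyclic AMP phosphodiesterases, 19 tested, had 5 genes higher and 9 lower in WT (73.7%) and 4 higher and 8 lower in the knockout (63.2%). Adcy5, a cyclase inhibited by Gi, fell, with log2 changes of -2.09 ± 0.17 in WT (17.1 to 4.02 CPM) and -1.28 ± 0.16 in the knockout. With MPP+ it was higher in the knockout by 1.56 ± 0.17 (adjusted p = 0.000228). Adcy6 went the other way, with 0.82 ± 0.084 in WT (67.6 to 119 CPM) and 0.30 ± 0.084 in the knockout. With MPP+ Adcy6 was lower in the knockout, by -0.33 ± 0.084 (adjusted p = 0.0212). Adcy1, Adcy2 and Adcy9 also rose in WT, and Adcy3, Adcy7 and Adcy8 fell. Of 15 genes of phospholipase C beta and calcium release, 5 rose and 5 fell in WT (66.7%) and 6 rose and 5 fell in the knockout (73.3%). In the genotype comparisons these 4 groups of genes had between 2 and 6 members called in each treatment (13.3% to 20% in PBS and 13.3% to 40% with MPP+, against 11% and 16.9% of all genes). The shares of all genes include genes with low counts. In a fit of genes with at least 1 CPM in 3 or more libraries, 67.1% were called with MPP+ in WT and 60.5% in the knockout. Between genotypes that fit called 16.2% in PBS and 23.6% with MPP+. The lists were not counted in that fit.

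The interaction was called for 9 of 135 tested genes of the 7 lists, and for 1.35% of all genes: 2 higher and 1 lower among other receptors of the same families, 2 higher among ligands and enzymes, 1 higher among other astrocyte receptors, 2 lower among cyclases and phosphodiesterases and 1 lower among genes of phospholipase C and calcium release. Ackr3 (1.36 ± 0.21, adjusted p = 0.0163), Enpp2 (2.15 ± 0.43, adjusted p = 0.0383), Adra1b (1.74 ± 0.34, adjusted p = 0.0343) and Ednra (1.32 ± 0.26, adjusted p = 0.0388) had a smaller negative log2 change in the knockout than in WT. These calls were lost under 2, 11, 15 and 13 of 22 alternative settings, leaving out single libraries among them.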

How the data were processed

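The 9 receptors and the gene lists were chosen with earlier results of these data known. RNA was extracted with TRIzol and sequenced after a SMARTER mRNA library kit, per the labels' protocols. The table deposited by the authors holds raw counts per gene and library and FPKM values, per the file headers; GRCm38 and mm10 are the builds in the submitters' processing notes. Aligner, counting tool and use of strand (not given in the sources used here) matter for genes with opposite-strand neighbours. Since counts are per gene, the exons that Arrb2 reads came from are unknown.

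The fits used edgeR 4.0.16 under R 4.3.3, with data.table at version 1.17.8. The filterByExpr function (minimum count 10, total 15) kept 21129 genes. After TMM scaling, a quasi-likelihood model of 4 group means over 12 libraries left 8 residual degrees of freedom. Tests were two-sided, with adjusted p under 0.05 as the threshold in each of 5 contrasts, and SE came from the F statistic. The edgeR, limma and DESeq2 fits were tried on counts simulated with edgeR's own estimate of the spread, for MPP+ in WT only. The other contrasts, the correlations and the motif search were not tried in this way. Within a gene, levels are CPM on TMM-scaled libraries. Between genes they are the deposited FPKM. Likeness used log2 CPM with a prior count of 2. Likeness to Grm3 is not reported here. Replicate pairs differed by a chi-square of 52.2 to 101 per gene against counting noise, more than repeat reads of the same library would give. That value cannot tell separate cultures from separate preparations of the same culture. The fits counted each library as its own sample. Intervals cover no more than the spread between these libraries, and without molecular identifiers the reads may include PCR copies.

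Pathway genes came from 7 functional lists (139 of 142 symbols matched, 135 tested), and cell types from 8 marker lists. Endothelial markers (6 tested) had 2 lower and 0 higher with MPP+ in each genotype, neuronal markers (8 tested) 5 and 4 lower in WT and knockout, and oligodendrocyte lineage markers (11 tested) 5 lower in each. Named were all receptors, Arrb2, and per list up to 5 called genes in each direction with the largest change and at least 1 CPM in the higher group, of which a part is given, plus ligands and paralogs. Promoters, annotation (GENCODE, RefSeq) and motifs were read with Python 3.11.15 and pandas 2.3.3. Alternatives used DESeq2 1.42.0, limma 3.58.1 on log2 of FPKM with a pseudocount, other scalings and filters, and left-out libraries.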

Additional observations from a re-analysis of the deposited data

How the results depend on the processing

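The 45 receptor values (9 genes in 5 contrasts) were recomputed under up to 23 alternatives, 1026 values in all, of which 976 kept direction and side of the threshold, 6 lost a call, 9 gained one and 35 turned sign; no value with a call turned sign. The cause of these changes was not tested. Outside single left-out libraries, the sign turned for Ednrb and Adrb1 under MPP+ in the knockout by limma on FPKM (Ednrb 0.071 with a pseudocount of 0.1 and 0.054 with 1, Adrb1 0.045 and 0.038). It also turned for Adrb1 between genotypes in PBS by limma (-0.029 and -0.024) and with both knockout libraries numbered 1 left out (-0.0040), and for Adora1 between genotypes with MPP+ without the low-count filter (0.0030) and with only the groups compared (0.0011). In the interaction, Adora2b turned without the filter (0.00034), by limma with a pseudocount of 1 (0.052) and without both knockout libraries numbered 1 (0.047), and Grm3 in the last 2 of these (-0.043 and -0.086). Called results that moved were the Lpar1 genotype difference in PBS (-0.31, not called, without both knockout libraries numbered 1), Grm3 with MPP+ in WT (0.40, called, in the fit of the WT libraries alone) and, by DESeq2, the interactions of Lpar1 (0.39), P2ry1 (-0.68) and Adrb1 (-0.49), with 3 receptors and 1407 genes called against 0 and 285.

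Without 1 library at a time, values ran from -0.020 to 1.02 for Adora2b with MPP+ in WT. With MPP+ in the knockout they ran from -0.33 to 0.22 for Ednrb, -1.02 to -0.67 for Adora1, 0.15 to 0.76 for Grm3, -0.095 to 0.048 for Adrb1 and, among pathway genes, -0.061 to 0.30 for Edn1. Between genotypes in PBS they ran from -0.42 to -0.31 for Lpar1 and -0.056 to 0.087 for Adrb1. Between genotypes with MPP+ they ran from -0.55 to -0.40 for S1pr1, -0.016 to 0.078 for Lpar1, -0.15 to 0.15 for Adora1 and 0.82 to 1.24 for Adora2b. In the interaction they ran from 0.34 to 0.46 for Lpar1, -0.81 to -0.57 for P2ry1, -0.61 to 0.43 for Adora2b, -0.22 to 0.39 for Grm3 and -0.56 to -0.40 for Adrb1, with 0 to 3 receptors called. Other uncalled values moved by over 1.5 times: with MPP+ Ednrb in WT (-0.52 to -0.10) and P2ry1 (0.026 to 0.23) and Adora2b (0.20 to 0.55) in the knockout, between genotypes Adora1 (-0.72 to -0.18) and Adora2b (0.61 to 1.65) in PBS and Grm5 with MPP+ (0.16 to 0.66), and the interactions of Ednrb (0.0057 to 0.56), S1pr1 (0.10 to 0.32), Adora1 (0.18 to 0.72) and Grm5 (0.42 to 0.92). Genes called ran from 1109 to 2753 between genotypes in PBS (2323 with all libraries), 2010 to 4746 with MPP+ (3565) and 63 to 1553 in the interaction (285). Without both knockout libraries numbered 1, they were 1012, 1906 and 12. With only the groups compared, 1968 genes were called between genotypes with MPP+, and without the filter 148 in the interaction. Of genes called between genotypes in PBS 48.6% were higher, against 36.3% and 35.7% by limma on FPKM with the smaller and larger pseudocount. The replicate block gave each replicate number an effect shared by both genotypes. With it the genes called were 11607, 10040, 2453, 3646 and 217 in the order of the contrasts. No receptor call changed. The numbers were not taken as pairs. The 18 correlations of same-numbered deviations, most of them across genotypes, lay between -0.019 and 0.060, with 11 the best of their library. Within a genotype each PBS library correlated best with the MPP+ library of its own number (0.0078 to 0.052 in WT, 0.019 to 0.048 in the knockout). The knockout libraries numbered 1 also had the lowest Y-linked sums of the knockout in both treatments. Pairing by number within a genotype is therefore possible, and the sources used here do not state it. A fit with pairing inside each genotype was not run, so the dependence of the calls on it was not tested. The order of the receptors by level was the same with counts per exon length. Of 78 values of named pathway genes, 58 kept direction and call under every alternative run. The alternatives were not tallied for Ada, Entpd1, Adra1a, Gnas, Gna11, Gnaq, Gnai2, Gnai3 and the cyclases other than Adcy5.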
